A study of Rattus norvegicus with 12 samples.

Results

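The 88 genes described here are the cytosolic ribosomal protein genes of rat dorsal root ganglion, chosen by symbol (Rpl or Rps followed by a number, or Rplp0, Rplp1, Rplp2 or Rpsa, without the S6 kinases and without symbols marked as pseudogenes) from 20152 genes listed. The symbols hold 52 large-subunit genes, 35 small-subunit genes and Rps19bp1, which matches by symbol only and codes for a protein that binds ribosomal protein S19. RNA came from ganglia of rats given oxaliplatin at 2.4 mg/kg (4 libraries), paclitaxel at 2.0 mg/kg (4 libraries) or vehicle (4 libraries), with both drugs injected into the peritoneal cavity to cause painful neuropathy. Oxaliplatin, a platinum compound that damages DNA, was given in glucose solution, and paclitaxel, which stabilises microtubules, in saline after dissolving it in DMSO. There was a single vehicle group whose composition the labels do not state, so a difference from it includes any effect of a solvent that those rats did not receive. The sources used here do not give strain, sex, age, time after injection or the number of animals behind a library. The p-values therefore reflect the scatter among these libraries only, and that scatter may be technical.

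A ribosome consists of a small subunit, which reads the mRNA, and a large subunit, which joins amino acids, and each holds ribosomal RNA and a set of proteins made in nearly equal amounts. Most of these mRNAs begin with a C followed by an unbroken run of C and T (a 5′ terminal oligopyrimidine tract), through which mTOR and LARP1 control their translation. In sensory neurons, ribosomal protein mRNAs are also carried into axons, where injury alters local translation.

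Start-site sequences were available from RefSeq (assembly GRCr8) for 68 of the 88 genes. The 8 shown are 4 members picked because they carry the pyrimidine run, and the 2 paralog pairs on which the results turn, each with 15 bases before the annotated start and 15 from it on, and capitals mark the run of at least 5 C or T nearest the start.
Rpl19 (GRCr8 chr10:83519049-83519078, plus strand): cgcgaccagcaagCTCTTTCCTTTCgctgc
Rpl28 (GRCr8 chr1:78083518-78083547, minus strand): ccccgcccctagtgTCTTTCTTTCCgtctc
Rps18 (GRCr8 chr20:4933730-4933759, plus strand): cacgtcacttccgCTCTCTCTTCCacagga
Rps7 (GRCr8 chr6:50999431-50999460, minus strand): tcgcgagagctgtgTCTCTTTCTaagccgg
Rpl22 (GRCr8 chr5:168117946-168117975, plus strand): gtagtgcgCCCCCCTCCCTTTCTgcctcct
Rpl22l1 (GRCr8 chr2:113683181-113683210, plus strand): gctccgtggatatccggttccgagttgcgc
Rps27 (GRCr8 chr2:177964592-177964621, minus strand): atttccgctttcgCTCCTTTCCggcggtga
Rps27l (GRCr8 chr8:76443643-76443672, plus strand): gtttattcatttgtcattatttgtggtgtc
Rpl22 and Rps27 carried such a run, and in these windows their copies Rpl22l1 and Rps27l did not. A run of at least 5 C or T on the coding strand between bases -5 and +15 was found in 46 of the 68 genes (67.6%), against 30.1% of other tested genes and 31.4% of all genes in the table. The motif CTTTC in the same window was found in 29.4% of the 68 genes, against 1.84% of other tested genes and 2.08% of all genes. On the opposite strand CTTTC was found in 1.47% of the 68 genes. A CTTTC match is itself a run of 5 pyrimidines, so the 2 searches overlap. These are matches of letters to annotated starts and say nothing of where transcription began in these ganglia.

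The ribosomal protein genes were among the most abundant of the ganglion. Their level per transcript length (FPKM, fragments scaled to transcript length and library size) averaged above 100 in 72 genes, between 10 and 100 in 7 and below 10 in 9, over the 12 libraries. The median was 345 FPKM over the 84 that passed the expression filter and 8.27 FPKM over all 15809 genes that passed. Small-subunit genes had a median of 400 FPKM (33 tested, counted without Rps19bp1) and large-subunit genes 318 FPKM (50 tested). The highest level was that of Rpl41, the smallest ribosomal protein, with 1093 ± 223 FPKM after oxaliplatin, 794 ± 140 after paclitaxel and 1061 ± 294 in vehicle (SD, n = 4 each). Next in order of mean level over all libraries came Rpl13a (947.9 FPKM), Rps16 (815.3 FPKM), Rps15 (732.9 FPKM) and Rpl35 (663 FPKM), and within each group the SDs of neighbours in that order overlapped. The tissue-restricted copies lay at the other end, with Rpl3l, a muscle paralog of Rpl3, at 0.46 FPKM and Rpl39l, a testis paralog of Rpl39, at 0.14 FPKM. Rps19bp1 lay between 12.8 and 17.9 FPKM in all 12 libraries.

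Several well known members were nearly empty in some or all libraries, and for most of them counts stood under rows that RefSeq names as copies. The sequences of genes and copies were not compared. Rps14 held between 0 and 9.03 estimated counts per library, while the row that RefSeq names Rps14-ps7 held 7456, 7472, 6896 and 4490 in the oxaliplatin libraries, 4600, 4789, 4492 and 6625 in the paclitaxel libraries and 6342, 9318, 6464 and 5914 in the vehicle libraries. Rpl30 was listed with 0, 1311, 1200 and 19.5 counts after oxaliplatin, 838.1, 48.2, 756.6 and 59.9 after paclitaxel and 24.4, 34.5, 1280 and 1003 in vehicle. Rpl30 and the rows named after it summed to 2596, 3121, 2839 and 1772 after oxaliplatin, 1721, 1922, 1740 and 2945 after paclitaxel and 2556, 3904, 2797 and 2468 in vehicle. The sums varied far less than the Rpl30 row, which held 59.9 counts or fewer in 6 libraries and 756.6 or more in the other 6, and whose log2 fold changes had standard errors of 1.61 to 1.62. Rps20 and Rpl35a were nearly empty in the same way, and Rpl9 was present only as rows that RefSeq names as its pseudogenes. Rps6, the small-subunit protein phosphorylated by the S6 kinases below mTOR, was listed in 7 of 12 libraries with 0 to 261.5 counts, and no other row named after it was found.

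In all, 45 of the 88 genes had estimated counts that were not whole in more than 6 libraries, which marks reads shared with copies, and 30 were whole in all 12. Values of the 45 are uncertain to the extent that reads were divided differently between libraries. The 4 genes that did not pass the expression filter were Rps14, Rps20, Rpl35a and Rpl39l. Adding 82 rows of copies to their parent gene gave 84 proteins. With copies summed, Rpl38 differed by 0.35 ± 0.18 between oxaliplatin and paclitaxel and by -0.15 ± 0.18 between paclitaxel and vehicle on the log2 scale, against 0.54 ± 0.24 and -0.30 ± 0.24 for its own row. Rpl22 differed by -0.06 ± 0.15 between oxaliplatin and vehicle, against -0.10 ± 0.17 for its own row.

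The share of all counts on the 88 genes was 2.16%, 2.23%, 1.99% and 1.49% in the 4 oxaliplatin libraries, 1.49%, 1.56%, 1.43% and 1.89% in the 4 paclitaxel libraries and 1.78%, 2.40%, 1.86% and 1.69% in the 4 vehicle libraries. Group means were 1.97% ± 0.33 after oxaliplatin, 1.59% ± 0.20 after paclitaxel and 1.93% ± 0.32 in vehicle (SD, n = 4 each), and the groups overlapped. Vehicle 2 stood above every other library, oxaliplatin 4 lay with the lowest paclitaxel libraries, and paclitaxel 4 lay within the vehicle range. In whole ganglia, fewer cells of a type and less RNA per cell cannot be told apart. Library totals were 17008728 to 17615736 estimated counts with 17987 to 18215 genes listed, and each share rests on 250019 counts or more, so counting error is far below the spread between libraries.

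**Figure D1:**
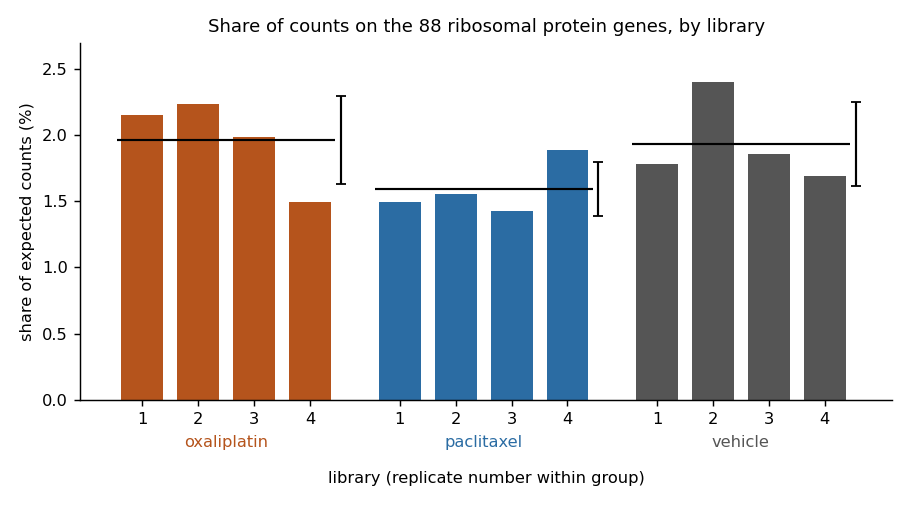
Bars give the percentage of all expected counts on the 88 ribosomal protein genes in each of 12 libraries, black lines the group means, and error bars 1 SD (n = 4). Shares ran from 1.43% in paclitaxel 3 to 2.40% in vehicle 2, and the 3 groups overlapped.

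In most libraries the ribosomal protein genes deviated largely in 1 direction. Relative to each gene's own vehicle mean, the median deviation of the 84 tested genes on the log2 CPM scale (counts scaled to library size) was 0.16, 0.19, 0.01 and -0.42 in the oxaliplatin libraries, -0.25, -0.29, -0.39 and -0.02 in the paclitaxel libraries and -0.12, 0.36, -0.05 and -0.17 in the vehicle libraries. In vehicle 2, 80 of the 84 genes lay above their vehicle mean, a mean that includes this library, and in oxaliplatin 4, 79 lay below it. In oxaliplatin 3 they were split, with 44 above and 40 below, and in paclitaxel 4 34 lay above and 50 below. Large-subunit and small-subunit genes had nearly the same median in every library, for example -0.42 for both in oxaliplatin 4 and 0.32 for large against 0.38 for small in vehicle 2. The spread between libraries of a group was therefore shared by most members, which are not replicates of a condition.

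**Figure D2:**
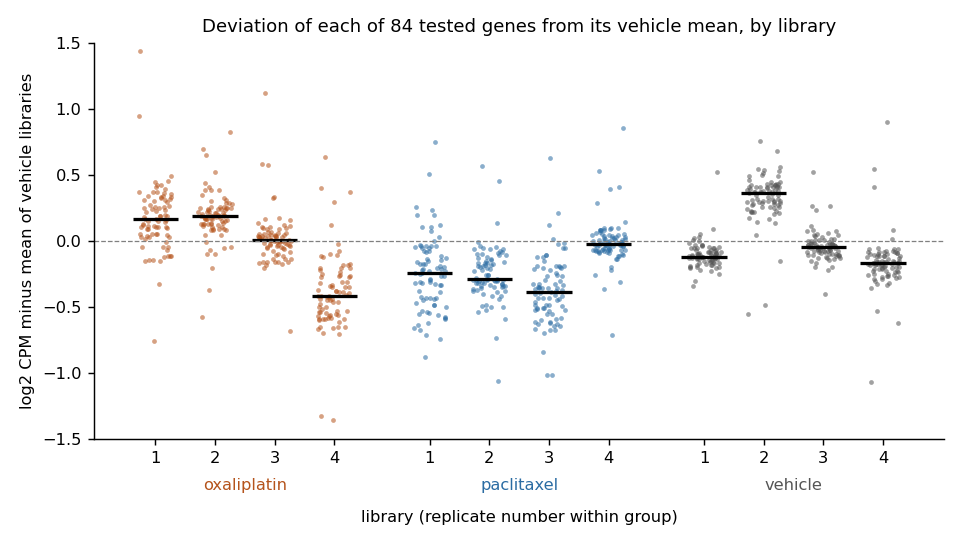
Each point is 1 of 84 tested genes, placed by its log2 CPM minus the mean of the 4 vehicle libraries (vertical axis), for the 12 libraries in 3 groups; black lines are medians. The whole set sits low in oxaliplatin 4 and in paclitaxel 1 to 3, and high in vehicle 2; 25 of 1008 points, all of Rpl30, Rpl30l1 or Rps6, lie beyond the axis limits of 1.5.

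Paclitaxel was compared with vehicle to ask how the drug altered the ganglion. No ribosomal protein gene passed the test: 0 of 84 were called by the quasi-likelihood test of edgeR (adjusted p under 0.05, Benjamini-Hochberg), where 0.12% of all 15809 genes were called, and 13 of the 84 had an unadjusted p under 0.05, against 17.1% of all genes. The log2 fold change was below 0 in 80 of the 84 genes, against 52.1% of all genes tested. Its median was -0.25 over the 84 genes, -0.24 over the large and -0.26 over the small subunit, and -0.01 over all genes. The median was -0.12 without vehicle 2, and 1 member was called by DESeq2, which called 1.63% of all genes, and 6 by limma voom with sample quality weights, which called 12.8%. With copies summed 0 were called, where 0.127% of all genes were. Without paclitaxel 4 the median was -0.33 and 3 members were called, Rpl7, Rpl22l1 and Rpl36al, where 10.2% of all genes were.

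**Figure D3:**
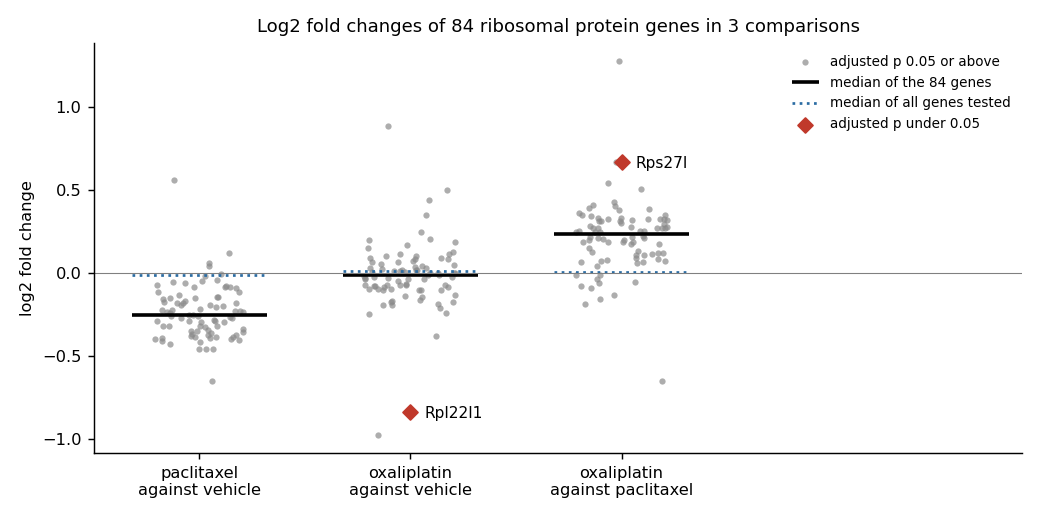
Log2 fold changes of the 84 tested genes in 3 comparisons, with called genes as red diamonds, the median of the 84 genes as black lines and the median of all genes tested as dotted lines. The median lies at -0.25 for paclitaxel against vehicle, -0.01 for oxaliplatin against vehicle and 0.23 for oxaliplatin against paclitaxel.

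The member with the smallest p after paclitaxel was Rpl22l1, the paralog of the large-subunit protein Rpl22. It had 61.8, 61.5, 56.6 and 84.8 FPKM in the paclitaxel libraries, against 97.9, 140.3, 98.5 and 91.6 FPKM in the vehicle libraries. All 4 paclitaxel libraries lay below all 4 vehicle libraries, with a log2 fold change of -0.65 ± 0.18 (SE) and an adjusted p of 0.203 (edgeR). DESeq2 (adjusted p 0.0412) and limma voom (0.0189) called it, as did edgeR without paclitaxel 4 (0.0311). Rps29, a zinc-finger protein of the small subunit, was the other gene without overlap, with 316.3, 378.6, 295.5 and 419.1 FPKM in the paclitaxel libraries, against 430.6, 689.2, 452.5 and 425 FPKM in the vehicle libraries. Its change was -0.46 ± 0.20 (adjusted p 0.270, edgeR). These were 2 of 84 genes lower without overlap, where 3.08% of all genes were.

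Among the next members by p, Rpl7 of the large subunit had 259, 285.4, 264.7 and 413.3 FPKM after paclitaxel, against 395.1, 543.2, 439 and 349.2 FPKM in vehicle. Paclitaxel 1 to 3 lay below the vehicle range and paclitaxel 4 inside it (log2 fold change -0.46 ± 0.18, adjusted p 0.251, edgeR). The same layout held for Rps12, with 296.5, 319.2, 273.8 and 388 FPKM after paclitaxel, against 398.9, 559, 420.9 and 358.5 FPKM in vehicle (-0.40 ± 0.16, adjusted p 0.251, edgeR). Rpl10a changed by -0.27 ± 0.11, Rps7 by -0.29 ± 0.13 and Rps21 by -0.40 ± 0.17 on the log2 scale, none called. Rpl5 and Rpl11, which with 5S RNA bind the ubiquitin ligase Mdm2 when ribosome assembly fails, had log2 fold changes of -0.39 ± 0.18 and -0.23 ± 0.15, and adjusted p of 0.282 and 0.419 (edgeR). The only gene past 0.2 in the other direction was Rps4y2, named as a copy of Rps4x, with 7.08, 6.46, 6.69 and 5.91 FPKM after paclitaxel, against 4.54, 3.92, 3.34 and 6.55 FPKM in vehicle (0.56 ± 0.23, adjusted p 0.257, edgeR).

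Oxaliplatin against vehicle gave a different layout, with members on both sides of 0. The log2 fold change was below 0 in 46 and above 0 in 38 of the 84 genes, with a median of -0.01, and over all genes 48.3% were below 0 and 51.7% above it, with a median of 0.01. The median was 0.10 without oxaliplatin 4 and 0.12 without vehicle 2, so its sign depends on the libraries. Rpl22l1 was the only member called, where 1.76% of all genes were, and 3 of the 84 had an unadjusted p under 0.05, against 17.2% of all genes. The 5 most abundant members, Rpl41 (0.01 ± 0.20), Rpl13a (-0.14 ± 0.15), Rps16 (-0.02 ± 0.16), Rps15 (0.09 ± 0.15) and Rpl35 (0.03 ± 0.13), differed on the log2 scale by less than their standard errors.

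Rpl22l1 fell after oxaliplatin. It had 62.4, 72.0, 68.2 and 42.2 FPKM in the oxaliplatin libraries, against 97.9, 140.3, 98.5 and 91.6 FPKM in the vehicle libraries, and it was the only 1 of 84 genes lower without overlap, where 5.76% of all genes were. The log2 fold change was -0.84 ± 0.18 (SE), or 0.558 times the vehicle level, with an adjusted p of 0.0359 (edgeR), and the counts of Rpl22l1 were whole in all 12 libraries. DESeq2 gave an adjusted p of 0.000556 and limma voom 0.0221, where they called 5.44% and 3.79% of all genes, and with copies summed it was again the only member called, where 1.77% of all genes were. Over 22 alternative settings it was called in 12, with log2 fold changes from -0.93 to -0.68 and adjusted p up to 0.0955. The edgeR call was lost when the fit lacked oxaliplatin 1 (adjusted p 0.0839), oxaliplatin 3 (0.0695), oxaliplatin 4 (0.0538), paclitaxel 2 (0.0550), paclitaxel 3 (0.0501), vehicle 1 (0.0636), vehicle 2 (0.0955) or vehicle 4 (0.0752), and in a fit of the oxaliplatin and vehicle libraries alone (0.0633).

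Its parent gene Rpl22, whose protein is known in mouse to hold down the Rpl22l1 mRNA, did not pass the test in either comparison with vehicle. Rpl22 had 110.7, 123.3, 111.9 and 74.1 FPKM after oxaliplatin, 72.1, 85.8, 74.0 and 98.0 FPKM after paclitaxel and 91.4, 143.3, 103.0 and 100.9 FPKM in vehicle. The oxaliplatin and vehicle libraries overlapped (log2 fold change -0.10 ± 0.17, adjusted p 0.818, edgeR), and so did the paclitaxel and vehicle libraries (-0.37 ± 0.17, adjusted p 0.282, edgeR).

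The ratio of the copies within a library separated the groups more cleanly than either gene. Rpl22l1 stood at 56.4%, 58.4%, 61.0% and 57.0% of the Rpl22 FPKM in the oxaliplatin libraries, at 85.7%, 71.8%, 76.5% and 86.5% in the paclitaxel libraries and at 107.1%, 97.9%, 95.7% and 90.8% in the vehicle libraries. The 3 groups did not overlap, and oxaliplatin 4 and vehicle 2, which stood apart in level, lay inside their groups in ratio. Means were 58.2% ± 2.05 after oxaliplatin, 80.1% ± 7.18 after paclitaxel and 97.9% ± 6.85 in vehicle (SD, n = 4 each). An exact two-sided permutation test of the log2 ratio gave p = 0.0286 for each pair of groups, the smallest that 70 arrangements of 4 against 4 allow. Over the 24 ratios of 8 such copy pairs the adjusted p was 0.137, and 5 of the 24 did not overlap. Part of the Rpl22 reads was counted under a copy, so the ratio was also taken over the summed counts of Rpl22 and that copy. Rpl22l1 then stood at 35.3%, 36.4%, 38.7% and 32.7% after oxaliplatin, 49.9%, 50.8%, 52.7% and 54.8% after paclitaxel and 64.7%, 64.2%, 57.2% and 60.6% in vehicle, again with no overlap.

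Rps27l, the paralog of the small-subunit protein Rps27, was the member with the next smallest p after oxaliplatin against vehicle. It had 39.3, 50.5, 36.4 and 31.3 FPKM in the oxaliplatin libraries, against 25.3, 37.1, 25.4 and 25.5 FPKM in the vehicle libraries, and the groups overlapped through vehicle 2 alone (log2 fold change 0.44 ± 0.16, adjusted p 0.180, edgeR). Rps27 itself had 520.2, 535.9, 488.8 and 317.1 FPKM after oxaliplatin, against 420.4, 651.7, 424.2 and 368.5 FPKM in vehicle (-0.04 ± 0.22, adjusted p 0.955, edgeR). Rps27l as a share of the Rps27 FPKM was 7.56%, 9.42%, 7.44% and 9.87% after oxaliplatin, 7.80%, 6.92%, 7.19% and 5.47% after paclitaxel and 6.03%, 5.69%, 5.98% and 6.91% in vehicle. Oxaliplatin and vehicle did not overlap in this ratio (exact permutation p = 0.0286, adjusted 0.137 over the 24 ratios). Oxaliplatin and paclitaxel overlapped in it (log2 ratio difference 0.32, exact permutation p = 0.0857, adjusted 0.206), and so did paclitaxel and vehicle (0.15, exact permutation p = 0.314, adjusted 0.444).

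Other members near the top of the oxaliplatin comparison were not called. Rpl3l had 1.14, 0.31, 0.93 and 0.53 FPKM after oxaliplatin, against 0.40, 0.22, 0.57 and 0.35 FPKM in vehicle (log2 fold change 0.89 ± 0.42, adjusted p 0.292, edgeR), and the groups overlapped. Rps4y2 differed by 0.50 ± 0.23, Rpl13 by 0.20 ± 0.10, Rpl3 by -0.19 ± 0.10, Rpl10a by -0.19 ± 0.11 and Rps10l1, a copy of Rps10 that RefSeq now lists as a pseudogene, by -0.24 ± 0.14 on the log2 scale. Rplp0, the base of the ribosomal stalk, and Rpsa, the small-subunit protein also known as the laminin receptor precursor, differed by 0.19 ± 0.12 and 0.21 ± 0.13.

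**Figure D4:**
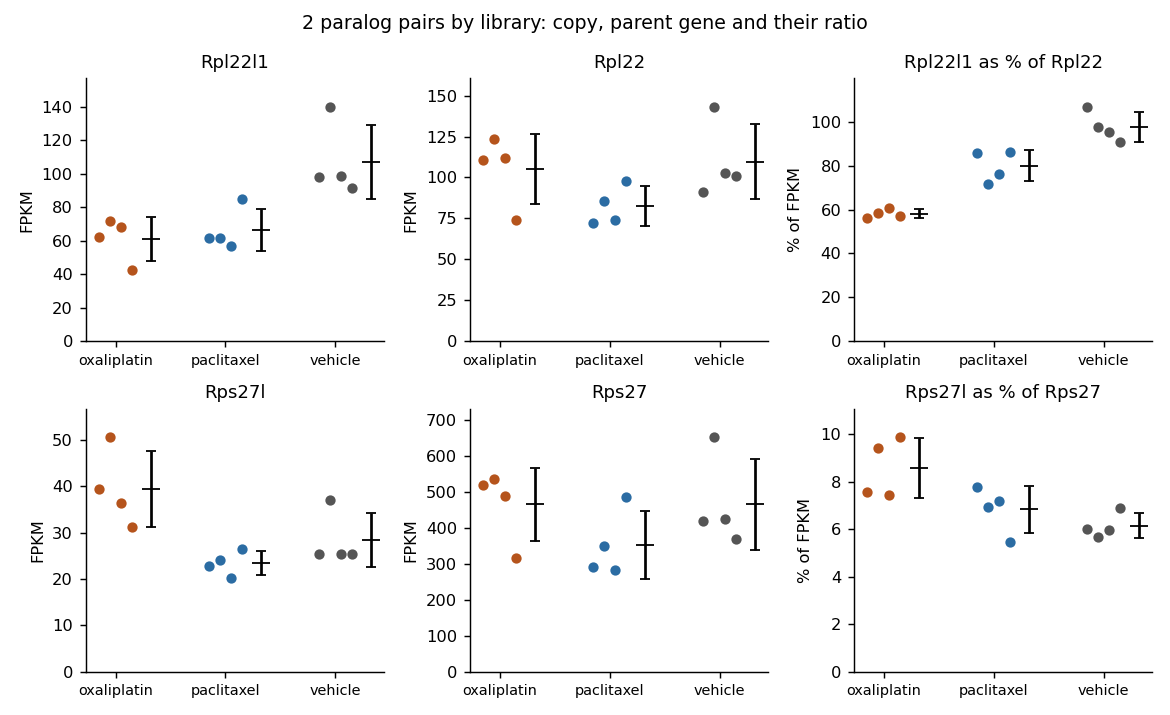
Dots give FPKM per library of Rpl22l1 and Rpl22 (top) and Rps27l and Rps27 (bottom), and the copy as a percentage of its parent (right), for oxaliplatin, paclitaxel and vehicle; bars give mean and SD (n = 4). The Rpl22l1 share lies near 58.2%, 80.1% and 97.9% in the 3 groups without overlap, while Rpl22 overlaps between them.

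Oxaliplatin against paclitaxel compared the drugs directly, and shares its paclitaxel libraries with the first comparison and its oxaliplatin libraries with the second. The log2 fold change was above 0 in 73 of the 84 genes, against 50.6% of all genes, with a median of 0.23 against 0.00 over all genes. Rps27l was the only member called, where 11.3% of all genes were, and 12 of 84 had an unadjusted p under 0.05, against 29.4% of all genes. The share of members called was therefore below that of all genes in this comparison. With limma voom and quality weights 23 members were called, where 29.9% of all genes were, and without oxaliplatin 4 edgeR called 11, where 14.1% of all genes were. DESeq2 called 1, where 17.3% of all genes were, and with copies summed 1 was called, where 11.4% were. The median was 0.35 without oxaliplatin 4.

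Rps27l rose in the oxaliplatin libraries relative to the paclitaxel libraries. It had 39.3, 50.5, 36.4 and 31.3 FPKM after oxaliplatin, against 22.8, 24.2, 20.3 and 26.6 FPKM after paclitaxel, with no overlap. The log2 fold change was 0.67 ± 0.16, or 1.59-fold, with an adjusted p of 0.0225 (edgeR). It was called in 18 of 22 alternative settings, with log2 fold changes from 0.53 to 0.76 and adjusted p up to 0.0736. The call was lost without oxaliplatin 2 (adjusted p 0.0617), paclitaxel 1 (0.0534), paclitaxel 2 (0.0570) or paclitaxel 3 (0.0736). Rps27l was the only 1 of 84 genes higher without overlap, where 9.17% of all genes were.

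Rpl19 of the large subunit had 815.7, 798, 715.2 and 596.6 FPKM after oxaliplatin, against 544.4, 531.5, 481.5 and 653.8 FPKM after paclitaxel. Only oxaliplatin 4 and paclitaxel 4 crossed (log2 fold change 0.33 ± 0.13, adjusted p 0.105, edgeR). Rps2, a small-subunit protein by the mRNA entry channel, had 711.2, 730.3, 606.4 and 490.9 FPKM after oxaliplatin, against 498.2, 505, 413.6 and 476 FPKM after paclitaxel, and again oxaliplatin 4 alone fell inside the other group (0.35 ± 0.14, adjusted p 0.111, edgeR). Rps12 differed by 0.40 ± 0.16, Rpl38, whose loss alters the skeleton in mice, by 0.54 ± 0.24 (0.35 ± 0.18 with copies summed) and Rpl27a by 0.33 ± 0.14, none called. Rpl3l differed by 1.28 ± 0.43 (adjusted p 0.0698, edgeR) at levels below 1.2 FPKM, and was called without oxaliplatin 2 (1.53, adjusted p 0.0441). Rps19, a small-subunit protein mutated in Diamond-Blackfan anaemia in people, was listed under 2 IDs that share reads. The ID 108348115 had 202.2, 215.1, 169.8 and 186.5 FPKM after oxaliplatin, against 196.3, 68.6, 103.1 and 89.4 FPKM after paclitaxel (0.67 ± 0.27, adjusted p 0.130, edgeR). With both IDs summed, Rps19 differed by 0.25 ± 0.15.

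The remaining copy pairs showed the range within the family. Rpl36al stood at 103% ± 13.5 of the Rpl36a FPKM after oxaliplatin, 118% ± 4.14 after paclitaxel and 111% ± 10.6 in vehicle, and Rpl7l1, a nucleolar relative of Rpl7, at 7.74% ± 0.91, 9.57% ± 1.69 and 7.21% ± 0.98 of Rpl7 in the same order of groups. Rps10l1 stood at 28.3% ± 4.98 of Rps10 after oxaliplatin, against 36.7% ± 2.24 after paclitaxel and 37.3% ± 4.30 in vehicle, and it did not overlap between the drugs. Rpl10l, a testis paralog of Rpl10, stood below 1% on average in all 3 groups. Rps4y2 stood at 1.59% ± 0.60 of Rps4x after oxaliplatin, 2.08% ± 0.58 after paclitaxel and 1.11% ± 0.46 in vehicle.

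Ribosomal genes outside the symbol rule lay close to the members. Fau, which codes for the small-subunit protein eS30 fused to a ubiquitin-like protein, had log2 fold changes of -0.18 ± 0.14 for paclitaxel and -0.01 ± 0.14 for oxaliplatin against vehicle. Rack1, a scaffold on the small subunit, had -0.12 ± 0.11 and 0.08 ± 0.11, and neither was called.

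Genes that make, load or regulate ribosomes are given by list. Of 53 tested genes of ribosome biogenesis 0 were called in any comparison. Over all genes 0.12% were called for paclitaxel and 1.76% for oxaliplatin against vehicle, and 11.3% for oxaliplatin against paclitaxel. The biogenesis medians were 0.05 for paclitaxel and 0.05 for oxaliplatin against vehicle. Mybbp1a, a nucleolar regulator, had log2 fold changes of 0.32 ± 0.09 for paclitaxel (adjusted p 0.203, edgeR) and 0.31 ± 0.09 for oxaliplatin (0.110), and the ribosome maturation factor Rrp12 had 0.68 ± 0.18 for paclitaxel (0.203). Of 24 tested genes with a known 5′ pyrimidine tract other than ribosomal proteins 0 were called in any comparison, against the same shares of all genes. Their medians were -0.09 for paclitaxel and -0.03 for oxaliplatin against vehicle. From library to library these genes had mean deviations of 0.05, 0.08, -0.03 and -0.20 after oxaliplatin, -0.07, -0.08, -0.14 and 0.05 after paclitaxel and -0.07, 0.16, -0.01 and -0.08 in vehicle, low in oxaliplatin 4 and paclitaxel 3 and high in vehicle 2 as the ribosomal protein genes were. Among them the elongation factor Eef2 had 0.21 ± 0.08 for paclitaxel (adjusted p 0.251, edgeR), where the prefoldin subunit Pfdn5 had -0.36 ± 0.17 (0.296).

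Of 40 tested translation factors 1 was called for oxaliplatin against vehicle, where 1.76% of all genes were. In the other comparisons 0 were called, where 0.12% (paclitaxel against vehicle) and 11.3% (oxaliplatin against paclitaxel) of all genes were. Eif4a2, an RNA helicase of the cap-binding complex, fell after oxaliplatin against vehicle by 0.72 on the log2 scale (SE 0.15, adjusted p 0.0353, edgeR). It was called in 11 of 22 alternative settings and lost without oxaliplatin 1, 3 or 4, paclitaxel 2 or 3, or vehicle 1, 2 or 4, with adjusted p of 0.0508 to 0.103. The call was also lost without TMM (0.0509) and with limma on log2(FPKM + 0.1) (0.0521). The median of the list was -0.01 for paclitaxel and -0.04 for oxaliplatin against vehicle. Eef1a2, the neuronal and muscle form of elongation factor 1A, had 0.58 ± 0.18 for paclitaxel (adjusted p 0.210, edgeR), and Eif3c had 0.37 ± 0.11 (0.203).

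Between the drugs, 4 of 35 genes of mTOR signalling were called, where 11.3% of all genes were. Eif4ebp1 (0.63 ± 0.15, adjusted p 0.0199, edgeR) and Eif4ebp2 (0.42 ± 0.12, 0.0373), which bind the cap-binding protein Eif4e, rose in oxaliplatin relative to paclitaxel libraries. Rheb (-0.26 ± 0.07, 0.0387) and Rraga (-0.23 ± 0.07, 0.0460), small GTPases that activate mTOR complex 1, fell. The Eif4ebp1 call was lost without oxaliplatin 3, paclitaxel 2 or paclitaxel 3 (adjusted p 0.0531 to 0.0664), and that of Eif4ebp2 without oxaliplatin 2 or 3, paclitaxel 1 or 2, or vehicle 1 or 3 (0.0509 to 0.129). Rheb was not called without oxaliplatin 1, 3 or 4 or paclitaxel 1, 2 or 3 (0.0524 to 0.103), and Rraga not without any of the 12 libraries (0.0515 to 0.102). Without TMM, Rheb differed by -0.18 (adjusted p 0.134, edgeR) and Rraga by -0.15 (0.202), and limma on log2(FPKM + 1) gave -0.18 (0.134) and -0.15 (0.204). With only the compared groups fitted, the calls of Eif4ebp2 (0.0818), Rheb (0.0701) and Rraga (0.1002) were also lost, and that of Rraga with no filter on low counts (0.0570). In the list of the ribosomal stress response, 1 of 15 genes was called higher and 1 lower between the drugs, where 11.3% of all genes were called. The gene called lower was Pelo, which rescues stalled ribosomes (-0.39 ± 0.09, adjusted p 0.0221, edgeR). The Pelo call was lost without oxaliplatin 3 or paclitaxel 2 or 3 (adjusted p 0.0643 to 0.0709). Mdm2 had 0.28 ± 0.08 for oxaliplatin against vehicle (adjusted p 0.111, edgeR). Neither the mTOR nor the stress list had a called gene against vehicle after either drug, where 0.12% (paclitaxel) and 1.76% (oxaliplatin) of all genes were called.

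Of 74 tested mitochondrial ribosomal protein genes, which are encoded in the nucleus and serve a separate ribosome, 0 were called against vehicle. Over all genes 0.12% were called for paclitaxel and 1.76% for oxaliplatin against vehicle. Between the drugs 1 of the 74 was called, where 11.3% of all genes were. This was Mrpl43, which fell in oxaliplatin relative to paclitaxel libraries (-0.35 ± 0.10, adjusted p 0.0415, edgeR). That call was lost without oxaliplatin 1 or 3, paclitaxel 1, 2 or 3, or vehicle 1, 2 or 4 (0.0511 to 0.117), without TMM (0.0798), with only the compared groups fitted (0.0849) and with limma on log2(FPKM + 1) (0.0795) or log2(FPKM + 0.1) (0.0797). Their medians were 0.01 for paclitaxel and -0.06 for oxaliplatin against vehicle. Of 37 tested nuclear genes of oxidative phosphorylation 0 were called in any comparison, against the same shares of all genes. Medians of these 37 were -0.18 for paclitaxel and -0.21 for oxaliplatin against vehicle. Of the 37, 35 lay below 0 after oxaliplatin against vehicle, where 48.3% of all genes did.

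Short transcripts of other kinds moved with the ribosomal proteins from library to library. The 88 ribosomal protein genes, tested or not, had a median transcript length of 565 bases, against 2552 bases over all tested genes. Among transcripts under 500 bases, the median deviation from the vehicle mean was -0.31 in oxaliplatin 4, -0.33 in paclitaxel 3 and 0.24 in vehicle 2 for 141 other genes, against -0.52, -0.54 and 0.42 in the same libraries for 23 ribosomal protein genes. Between 1000 and 1500 bases the other genes lay between -0.08 and 0.08 in all 12 libraries, while 9 ribosomal protein genes of that length lay between -0.27 and 0.27. The deviation of ribosomal protein genes was thus the wider in both length classes in these 3 libraries, and the part of transcript length or RNA quality in the group differences was not tested.

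**Figure D5:**
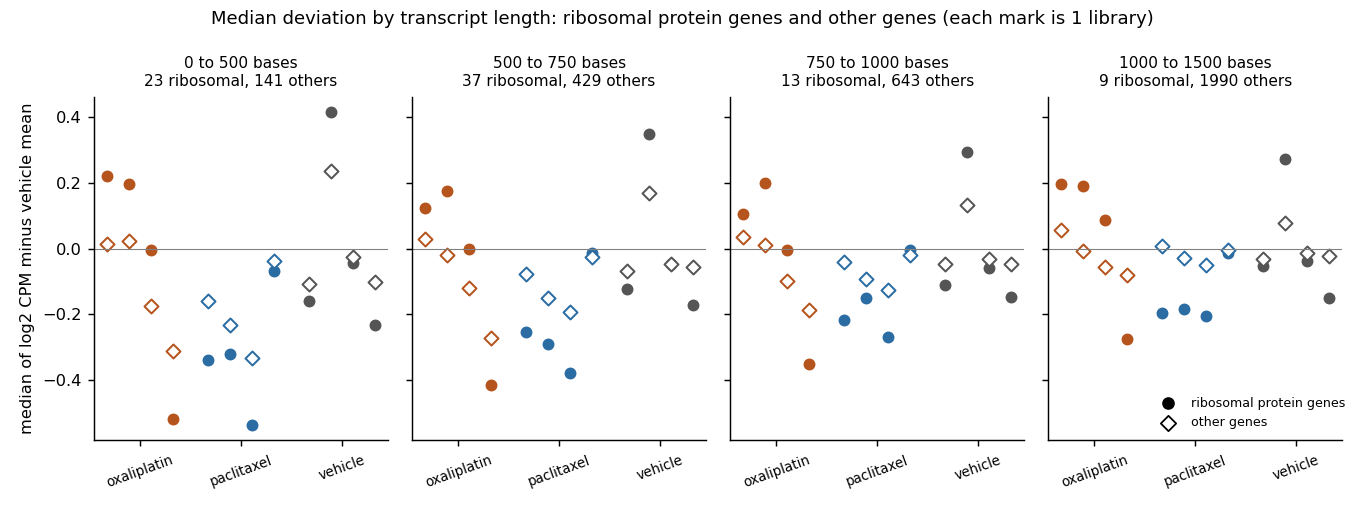
Median of log2 CPM minus the vehicle mean in each library (vertical axis), for ribosomal protein genes (filled circles) and other tested genes (open diamonds) in 4 classes of transcript length; colours mark oxaliplatin, paclitaxel and vehicle, and marks run from replicate 1 to 4 in each. Other genes follow the ribosomal protein genes in the shortest class, from -0.33 to 0.24, and stay within 0.08 of 0 in the longest.

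The defining markers of a sensory ganglion were present: all 16 neuron markers, 8 satellite glia markers and 10 Schwann cell markers were tested and none was at 0. The summed level of the satellite glia markers was 5362 to 8041 CPM after oxaliplatin, 5003 to 7728 CPM after paclitaxel and 6797 to 8300 CPM in vehicle, with 8 of 8 below 0 for paclitaxel and 0 called. Their mean deviation was -0.23, -0.02, 0.16 and -0.35 in the oxaliplatin libraries, -0.43, -0.49, -0.51 and 0.11 in the paclitaxel libraries and 0.08, 0.16, -0.04 and -0.20 in the vehicle libraries. Paclitaxel 1 to 3 and oxaliplatin 4 were low in both these markers and the ribosomal protein genes. In oxaliplatin 1, oxaliplatin 2, paclitaxel 4 and vehicle 1 the signs of the marker mean and the ribosomal median were opposite. Near 0 were the marker mean in oxaliplatin 2 (-0.02) and the ribosomal median in paclitaxel 4 (-0.02). Neuron markers deviated by 0.38, 0.18, 0.30 and -0.01 in paclitaxel 1 to 4, and 16 of 16 lay above 0 for paclitaxel and 15 of 16 below 0 for oxaliplatin against vehicle, with 2 called lower after oxaliplatin (1.76% of all genes were called there). For oxaliplatin against paclitaxel 16 of 16 lay below 0 and 9 were called lower, where 11.3% of all genes were called. The summed level of the neuron markers was 17015 to 22080 CPM after oxaliplatin, 24019 to 34693 CPM after paclitaxel and 23892 to 27480 CPM in vehicle. Macrophage markers, of which 12 of 12 were below 0 for paclitaxel and 2 were called (0.12% of all genes were), summed to 253 to 315 CPM after oxaliplatin, 119 to 208 CPM after paclitaxel and 228 to 419 CPM in vehicle. Erythroid markers, with 11 of 11 above 0 for oxaliplatin, 11 of 11 below 0 for paclitaxel and 0 called against vehicle, summed to 4821 to 16269 CPM after oxaliplatin, 1160 to 2838 CPM after paclitaxel and 2257 to 4349 CPM in vehicle, and all 11 were called higher in oxaliplatin relative to paclitaxel libraries (11.3% of all genes were called). Adipocyte markers had 3 of 7 called higher after oxaliplatin against vehicle (1.76% of all genes), and fibroblast markers 6 of 10 called higher after oxaliplatin against paclitaxel (11.3%). The part of cell makeup in the ribosomal protein values was not tested.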

How the data were processed

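Each of the 12 libraries had a deposited table with 2 measurements per gene. The expected counts, per the file headers, are estimated counts that need not be whole, since reads matching several genes are divided between them, and the authors deposited FPKM values beside them. CASAVA 1.4 and Bowtie2 appear in the submitters' processing notes. What quantified the reads, with which strand setting and on which build, is not given in the sources used here. No listed FPKM is below 0.01, and genes missing from a library's table entered as 0.

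After rounding to whole numbers, expected counts of all genes were fitted with edgeR 4.0.16 (R 4.3.3): default expression filter, TMM, robust quasi-likelihood fit of 3 group means over 12 libraries (9 residual degrees of freedom), two-sided, and genes with a Benjamini-Hochberg adjusted p under 0.05 are called. Groups and replicate numbers came from the titles. The common dispersion had a square root of 0.159, and chi-square per gene between libraries of a group was 8.07 to 44.9, so no pair of libraries agreed within sampling noise. Alternatives were DESeq2 1.42.0, limma 3.58.1 voom with quality weights, limma on log2(FPKM + 1) and log2(FPKM + 0.1), other scalings and filters, each library left out in turn, and a replicate block. Summing each gene with its copies was added after seeing the data. Scripts were tested on simulated counts.

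The ribosomal protein genes and the other lists were chosen with earlier results of these data known, so no list was tested. Members named are every called member, the 8 smallest p per comparison, the 5 highest and 5 lowest by FPKM, copy pairs and Rps19bp1, and of each pathway list up to 4 called genes, otherwise the 2 with the smallest p. Other members and copy-row counts were chosen after their values were seen, as was the test of copy ratios. Of the 88 gene IDs 85 were found in the RefSeq table (GRCr8). Some genes of the lists are not reported here.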

Additional observations from a re-analysis of the deposited data

Results flagged for a closer look

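FPKM values of the named genes were checked in 123 groups of 4 libraries for a library far from the other 3, and 16 were found. The limit is set for about 1 in 20 groups by chance, if groups are independent and values not tied. These genes moved together in the same 12 libraries and some groups hold tied zeros, so the 16 cannot be set against that rate. Vehicle 2 was the far library in 7 of them, each time the highest: Rps16 (1129 FPKM, others 772.5 to 799.2), Rps21 (743.7, others 494.1 to 531.3), Rps29 (689.2, others 425 to 452.5), Rps4x (543.5, others 376.4 to 404.5), Rps10 (340.2, others 258.2 to 268.6), Rpl22l1 (140.3, others 91.6 to 98.5) and Rps27l (37.1, others 25.3 to 25.5). Oxaliplatin 4 was the lowest for Rpl35 (570.2 FPKM, others 756.7 to 784.4) and Rpl7l1 (26.3, others 32.6 to 33.1). Paclitaxel 4 was the highest for Rpl36a (161.9 FPKM, others 101 to 108.5).

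The other 6 were values near 0 of genes whose reads are shared with copies or hardly present. Rpl30l1 had 5.60 FPKM in oxaliplatin 1, against 0 to 0.02 in the others, and Rps20 had 0 in oxaliplatin 2, against 2.32 to 2.50. Rps14 had 0.20 FPKM in oxaliplatin 1 and 1.14 in vehicle 1, with 0 in the other libraries of each group. Rpl39l had 0.23 FPKM in paclitaxel 1, against 0 in the others, and 0.47 in vehicle 1, against 0.11 to 0.12.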

How the results depend on the processing

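Members called for paclitaxel against vehicle (0 of 84 as reported) came to 1 with DESeq2, 6 with limma voom, 2 with copies summed and paclitaxel 4 left out, and 0 to 3 when 1 library was left out. For oxaliplatin against vehicle (1) the count was 0 with only the compared groups fitted, 0 with a replicate block (Rpl22l1 at an adjusted p of 0.0684, edgeR), and 0 to 2 with 1 library left out. For oxaliplatin against paclitaxel (1) it was 23 with limma voom, 2 with either FPKM pseudocount, 4 with copies summed and paclitaxel 4 left out, and 0 to 11 with 1 library left out. The cause of these shifts was not tested. With 1 library left out, medians ran from -0.33 to -0.12, -0.08 to 0.12 and 0.17 to 0.35 in the same order of comparisons. The shifts stayed within 1 SD of the library scores (0.23, pooled within groups). That SD is about as large as the medians of -0.25 and 0.23 themselves, so this limit does not show that they are stable. The replicate numbers did not pair libraries (correlations of same-numbered deviations -0.23 to 0.16), and the block gave medians of -0.22, -0.01 and 0.22. It also ended the calls of Eif4a2 (0.0660), Eif4ebp2 (0.0548), Rheb (0.0575), Rraga (0.0683) and Mrpl43 (0.0813). Without oxaliplatin 2, Rps20 was called between oxaliplatin and vehicle from under 22 counts per library, and rows named as its copies held far more counts. The ratio of summed shares was 0.82 for paclitaxel over vehicle (0.77 to 0.90 with 1 library left out), 1.02 for oxaliplatin over vehicle (0.97 to 1.11) and 1.23 for oxaliplatin over paclitaxel (1.18 to 1.33). Of the alternatives for named genes, 1279 stayed on their side of the threshold, 82 passed it, 90 fell short of it and 0 changed the sign of a call. The smallest difference that 4 libraries per group can show was not estimated.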
